A study of Mus musculus with 46 samples.

Results

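The mitochondrial ribosomal proteins were taken here as every gene symbol in the count tables made of Mrpl or Mrps, a number and at most 1 letter. Of the 45777 symbols in each table, 78 matched, 49 named Mrpl (large subunit) and 29 named Mrps (small subunit, apart from Mrps18a, Mrps30 and Mrps36). All 78 had a mean of at least 10 counts per library in every table and all 78 passed the low-count filter of every fit. The lowest table mean of any member was 303.9 counts, for Mrps28 in proximal small intestine, so no member lay near the minimum. Expression was measured by RNA-seq of messenger RNA from intestinal tissue of C57BL/6J males. In the chronic experiment the mice had imeglimin or metformin at 3 mg/mL in their drinking water for 4 weeks, or were controls, and colon was collected together with the proximal, middle and distal parts of the small intestine. In the acute experiment they had 1 oral dose of imeglimin or metformin at 600 mg/kg, or were controls, and colon was collected after 6 h. The sources used here give neither age, diet nor the controls' vehicle, nor whether the segments came from the same mice. Each of the 15 groups held 3 libraries, with 31606797 to 47324301 counts per library, of which the members took 0.157% to 0.341%. Nothing in the labels says whether the 3 libraries of a group came from separate mice, so the p-values measure only the spread between these libraries.

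Mitochondria keep a ribosome of their own, which makes the few subunits of the respiratory chain and the ATP synthase that mitochondrial DNA encodes. Its RNA comes from mitochondrial DNA, while all of its proteins are encoded in the nucleus, made in the cytosol and imported, and many but not all of them have counterparts in bacterial ribosomes. Metformin is a biguanide glucose-lowering drug known to inhibit respiratory complex I, and imeglimin is a structurally related tetrahydrotriazine. The study asked in what the actions of the drugs on the intestine are alike and in what they differ.

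NRF1, the ETS-family factor GABP and YY1 are known activators of nuclear genes for mitochondrial proteins, so the members' promoters were searched for their motifs. RefSeq promoter windows on the GRCm38.p6 build, from 250 bases before to 50 bases after the gene's start, were matched for 69 of the 78 members. Both strands were searched, and matches of different motifs may overlap. The NRF1 motif (GCGCA, 1 base of any kind, then GCGC) stood in 13 of the 69 (18.8%), against 5.19% of the 27025 genes in the same table. The ETS motif CCGGAAG stood in 26 (37.7%), against 9.93% of all genes, and the YY1 motif AAGATGGC in 12 (17.4%), against 3.19% of all genes. The ATF4 composite motif TGATGNAA stood in 0 of the 69, against 4.51% of all genes, and the E-box CACGTG in 5 (7.25%), against 8.09%. Of the 15 matched members that were higher in all 4 colon comparisons described further on, 2 held the NRF1 motif, 7 the ETS motif and 2 the YY1 motif. Of the 8 matched members called in none of them, 1 held the NRF1 motif, 2 the ETS motif and 1 the YY1 motif. A match describes the letters of the window and does not show that a factor binds there.

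Promoters of 4 members are printed to show these motifs, which stand in capitals, in genes whose mRNA was higher in colon (Mrpl12, Mrps18a and Mrpl34) and in Mrpl39, which was not called there. Each runs 5′ to 3′ from 250 bases before to 30 bases after the start. Mrpl12 lies at chr11:120484387-120484666 on the plus strand, with an NRF1 match at bases 170 to 179 of the window. Mrps18a lies at chr17:46110754-46111033 on the plus strand, with an ETS match at bases 225 to 231 and a YY1 match at bases 262 to 269. Mrpl34 lies at chr8:71464676-71464955 on the plus strand, with an ETS match at bases 214 to 220. Mrpl39 lies at chr16:84735215-84735494 on the minus strand, with an NRF1 match at bases 126 to 135.
Mrpl12: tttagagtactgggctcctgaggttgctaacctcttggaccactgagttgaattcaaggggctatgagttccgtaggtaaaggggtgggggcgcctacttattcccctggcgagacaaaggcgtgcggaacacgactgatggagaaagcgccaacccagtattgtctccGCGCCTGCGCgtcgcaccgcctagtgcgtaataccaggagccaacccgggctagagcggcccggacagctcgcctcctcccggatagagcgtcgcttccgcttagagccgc
Mrps18a: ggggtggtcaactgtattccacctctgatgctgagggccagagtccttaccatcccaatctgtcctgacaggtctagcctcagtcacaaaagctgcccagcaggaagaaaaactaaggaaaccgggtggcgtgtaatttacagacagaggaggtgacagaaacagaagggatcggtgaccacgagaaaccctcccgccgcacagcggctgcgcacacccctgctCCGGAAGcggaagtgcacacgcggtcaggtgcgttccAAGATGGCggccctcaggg
Mrpl34: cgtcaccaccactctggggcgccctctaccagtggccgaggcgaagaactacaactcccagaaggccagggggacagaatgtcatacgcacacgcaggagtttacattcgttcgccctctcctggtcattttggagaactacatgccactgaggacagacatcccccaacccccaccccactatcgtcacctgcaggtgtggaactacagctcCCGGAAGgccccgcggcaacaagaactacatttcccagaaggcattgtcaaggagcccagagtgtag
Mrpl39: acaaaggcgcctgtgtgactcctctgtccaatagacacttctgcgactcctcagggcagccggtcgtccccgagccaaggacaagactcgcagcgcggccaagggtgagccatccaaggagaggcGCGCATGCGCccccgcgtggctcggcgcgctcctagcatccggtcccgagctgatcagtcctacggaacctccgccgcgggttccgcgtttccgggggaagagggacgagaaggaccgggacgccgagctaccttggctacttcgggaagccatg

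Library facts that bear on the values are given first. Control 3 of chronic colon carried RNA of pancreatic acinar genes, with a summed marker level of 24300 CPM, so counts without it are given with each chronic colon result. In chronic colon 3 of 10 fibroblast markers and 0 of 10 smooth muscle markers were lower with imeglimin, and 8 and 6 of 10 were lower with metformin. The summed smooth muscle level there was 4220 to 5890 CPM with imeglimin and 3900 to 4380 CPM with metformin, against 5650 to 5840 CPM in controls. In acute colon it was 4870 to 7360 CPM with imeglimin and 1890 to 7350 CPM with metformin, against 5240 to 7000 CPM in controls, and 0 of 10 smooth muscle markers were called with either drug. In edgeR's quasi-likelihood test their unadjusted p was under 0.05 for 0 of 10 with imeglimin and 2 of 10 with metformin. The summed fibroblast level in chronic colon was 854 to 1010 CPM with imeglimin and 840 to 883 CPM with metformin, against 1120 to 1430 CPM in controls, so every drug library lay below every control. In acute colon it was 917 to 1110 CPM with imeglimin, below every control, and 730 to 1260 CPM with metformin, against 1160 to 1430 CPM in controls, and 2 and 0 of 10 fibroblast markers were lower. Markers of B and plasma cells had a mean log2 level in chronic colon of 3.18, 2.74 and 2.08 with imeglimin and 3.36, 0.97 and 0.57 with metformin, against 3.32, 3.42 and 3.67 in controls. Those of T and NK cells had -0.13, -0.73 and -0.09 with imeglimin and -0.19, -1.88 and -1.92 with metformin, against -0.37, -0.55 and -0.28 in controls. Metformin 2 and 3 thus stood below all other chronic colon libraries in both kinds of lymphocyte marker. Of 10 markers each, 0 of B and plasma cells and 1 of T and NK cells were called lower with metformin by edgeR, 3 and 2 had an unadjusted p under 0.05, and 0 of either kind were called with imeglimin.

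The summed level of the 78 members was higher with either drug in colon at both times, and in the small intestine it lay within 0.878 to 1.11 times the group it was compared with. Levels are in CPM, counts scaled to a common library size by the library total and the TMM factor of its table. In colon at 4 weeks the sum was 2559, 2278 and 2440 CPM in the imeglimin libraries, 2494, 2820 and 2473 CPM in the metformin libraries, and 1926, 2042 and 1991 CPM in the control libraries. In colon at 6 h it was 2872, 3617 and 3304 CPM in the imeglimin libraries, 3208, 3089 and 2890 CPM in the metformin libraries, and 2183, 2304 and 2110 CPM in the control libraries. At each time every drug library lay above every control library. The ratio to control at 4 weeks was 1.22 for imeglimin and 1.31 for metformin, and at 6 h it was 1.48 for imeglimin and 1.39 for metformin. With library totals in place of TMM these ratios were 1.14, 1.18, 1.37 and 1.3 in the same order, and the groups still did not overlap. In middle small intestine the sum averaged 1878 ± 48.6 CPM with imeglimin and 1723 ± 102 CPM with metformin, against 1690 ± 84.4 CPM in controls (SD, n = 3 each). In distal small intestine it averaged 1824 ± 73 CPM with imeglimin and 2076 ± 168 CPM with metformin, against 1888 ± 194 CPM in controls (SD, n = 3 each). In proximal small intestine it averaged 1783 ± 18.2 CPM with imeglimin and 1717 ± 68.3 CPM with metformin, against 1654 ± 8.97 CPM in controls (SD, n = 3 each). The imeglimin libraries of the proximal and middle segments lay above their controls with TMM and overlapped them with library totals. A sum weights the abundant members, so each gene was also tested on its own. In bulk tissue fewer cells of a type and less RNA per cell cannot be told apart.

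**Figure D1:**
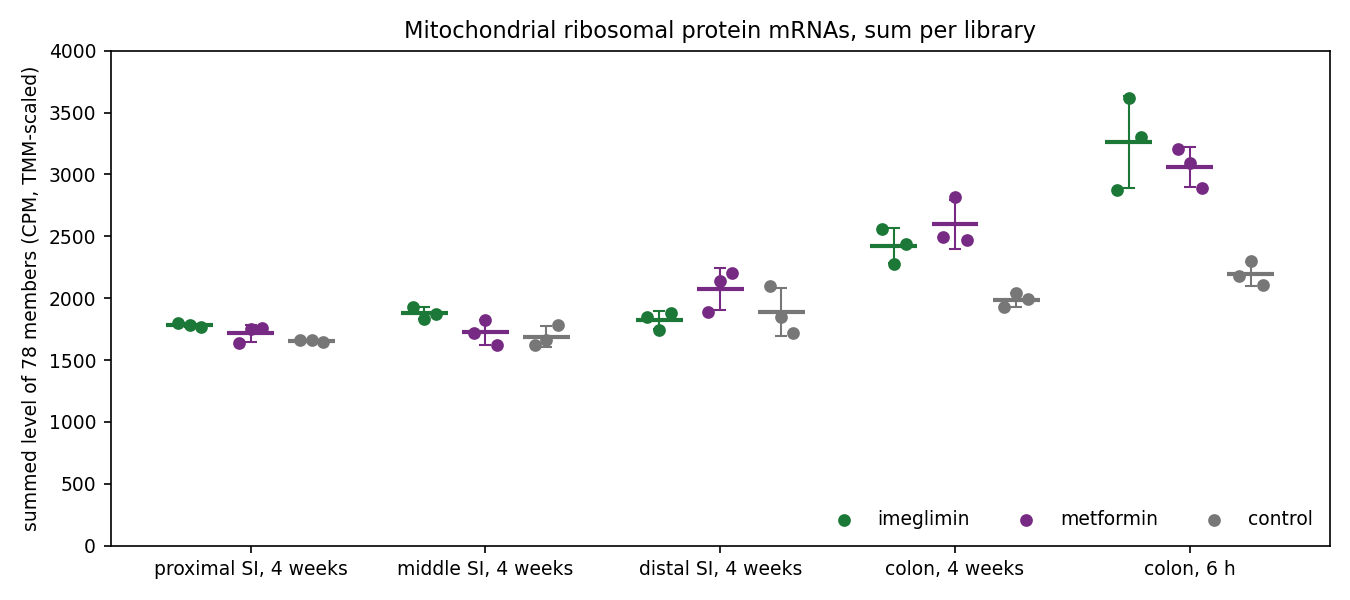
Summed level of the 78 members in each library (vertical axis, CPM with TMM scaling within a table) for imeglimin, metformin and control in the 5 tissue sets, where SI is small intestine. Points are libraries, and lines and bars are the mean and SD of 3 libraries. In colon at 4 weeks and at 6 h all drug libraries lie above all control libraries, and in the small intestine the groups lie closer together or overlap.

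Levels of different members were compared only per length, as CPM per kilobase of GENCODE M21 exon length. The length is that of each gene's longest transcript, with those marked as principal taken first. In control colon of the chronic experiment the members spanned 3.45 CPM per kilobase for Mrpl17 to 77.11 for Mrpl52, with a median of 16.48. This order depends on the transcript chosen, since Mrpl17 had 25.2 CPM over 7300 bases and Mrpl52 had 32.2 CPM over 418 bases. In control colon of the acute experiment they spanned 2.8 for Mrpl47 to 84.46 for Mrpl52, with a median of 19.39. Mrpl12, a subunit of the flexible stalk that recruits translation factors, stood at 72.75 CPM per kilobase in chronic and 79 in acute control colon. In the small intestine Mrps21, a small subunit protein, was highest per length, with 63.59, 59.26 and 72.06 CPM per kilobase in proximal, middle and distal controls. The exons of 26 members overlap another annotated gene in GENCODE M21, 22 of them on the opposite strand and 5 on the same strand. The sources used here do not say whether the counting used strand, so reads of such pairs may be split or shared. The same-strand cases are Mrpl33, Mrpl51, Mrpl53, Mrps18c and Mrps6, and Mrpl12, Mrpl19, Mrpl47, Mrps18b and Mrps7 are among the opposite-strand cases. Pseudogenes of Mrpl23, Mrpl48 and Mrps36 have rows of their own, so the counts of these 3 genes are uncertain as well.

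In colon 6 h after the dose, messenger RNAs of most mitochondrial ribosomal proteins were higher with imeglimin, by 1.2-fold to 2.21-fold among those called. By edgeR's quasi-likelihood test, with adjusted p under 0.05 over 18294 genes, 64 of the 78 members were higher (18.1% of all genes tested were) and 0 were lower (15.1% of all genes were). At an unadjusted p under 0.05 the test picked 68 members, and DESeq2 called 67. Such counts are given here and below without the share of all genes. They show only how the calls depend on threshold and tool, not whether the members stand out. The members' median log2 fold change was 0.59, with a range of -0.08 to 1.15, against a median of -0.03 over all genes. Genes of both names were called higher, 38 of 49 Mrpl and 26 of 29 Mrps. Among these Mrps genes, Mrps18a and Mrps30 belong to the large subunit and Mrps36 is now placed outside the ribosome. In 66 of the 78 the 3 imeglimin libraries all lay above the 3 controls (25.5% of all genes tested did, and 25.6% lay below), and in 0 they all lay below. The 2 members with a fold change below 0 were Mrpl10 and Mrpl49. Mrps22 was called although its groups overlap.

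With metformin at 6 h 51 of the 78 members were higher (11.3% of all genes tested were) and 0 were lower (8.37% of all genes were), by 1.26-fold to 2.19-fold among those called. At an unadjusted p under 0.05 edgeR's quasi-likelihood test picked 69, and DESeq2 called 60. The median log2 fold change was 0.44, with a range of 0.11 to 1.13, against a median of -0.04 over all genes. All 78 estimates were above 0, and in 72 members the metformin libraries all lay above the controls (20.0% of all genes did, and 18.8% lay below). Of the Mrpl genes 33 of 49 were called higher, and of the Mrps genes 18 of 29. The imeglimin and metformin comparisons share the 3 control libraries.

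The steepest rise at 6 h with either drug was that of Mrpl47, a large subunit protein. It had 18.3, 25.3 and 18.9 CPM in the imeglimin libraries, 20.6, 21.6 and 19.7 CPM in the metformin libraries, and 9.75, 9.93 and 8.56 CPM in the control libraries. No drug library came near the controls, and the log2 fold change was 1.15 ± 0.14 (SE, edgeR adjusted p = 0.000198) with imeglimin and 1.13 ± 0.14 (edgeR adjusted p = 0.000405) with metformin. Mrpl51, another large subunit protein, had 91.8, 115.4 and 112.3 CPM in the imeglimin libraries and 90.9, 90.1 and 75 CPM in the metformin libraries, against 53.2, 54 and 47.7 CPM in controls. It was higher in every drug library, by 1.04 ± 0.12 with imeglimin (edgeR adjusted p = 0.000133) and 0.72 ± 0.11 with metformin (edgeR adjusted p = 0.00166) on the log2 scale. Mrpl53, of the mitochondrion-specific part of the large subunit, had 28.9, 41.5 and 32.6 CPM with imeglimin and 32.9, 29.8 and 29 CPM with metformin, against 15.7, 20.3 and 17.1 CPM in controls. Again the groups did not overlap, and it rose by 0.95 ± 0.14 with imeglimin (edgeR adjusted p = 0.000705) and 0.79 ± 0.14 with metformin (edgeR adjusted p = 0.00358).

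The genes Mrps18a, Mrps18b and Mrps18c are paralogs of 1 bacterial gene, and the protein of Mrps18a sits in the large subunit despite its name. Mrps18a had 42.6, 58.4 and 51.7 CPM with imeglimin and 44.6, 46.2 and 41.7 CPM with metformin, against 24.4, 25.8 and 24.9 CPM in controls at 6 h. Its controls lay close together and all drug libraries far above them, with a log2 rise of 1.02 ± 0.12 with imeglimin (edgeR adjusted p = 0.000139) and 0.82 ± 0.11 with metformin (edgeR adjusted p = 0.000842). Mrps18b had 31.6, 40.8 and 42 CPM with imeglimin and 44.2, 44.9 and 39 CPM with metformin, against 21.7, 25.3 and 18.2 CPM in controls. It rose by 0.81 ± 0.14 with imeglimin (edgeR adjusted p = 0.00162) and 0.97 ± 0.14 with metformin (edgeR adjusted p = 0.00107). Mrps18c was called only with imeglimin, at 0.53 ± 0.14 (edgeR adjusted p = 0.0143), and with metformin its estimate was 0.32 ± 0.14 (edgeR adjusted p = 0.136), a difference between the drugs that did not pass the direct test described further on.

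Members with named tasks on the ribosome were among those that rose at 6 h. Mrpl12 had 144.9, 195.9 and 179.7 CPM with imeglimin and 177.9, 155.2 and 150.9 CPM with metformin, against 103.7, 114.8 and 93.4 CPM in controls. Every drug library exceeded every control, and it rose by 0.74 ± 0.13 with imeglimin (edgeR adjusted p = 0.0014) and 0.63 ± 0.13 with metformin (edgeR adjusted p = 0.00578). Mrpl11, at the base of the stalk, rose by 0.54 and 0.43 on the log2 scale with imeglimin and metformin. Mrpl10, which anchors the stalk, had log2 estimates of -0.03 and 0.17 that were not called. Mrpl3, whose bacterial counterpart reaches towards the catalytic centre, rose by 0.58 and 0.71. Mrpl45, which holds the ribosome's exit tunnel at the inner membrane, rose by 0.62 and 0.56, and Mrpl58, a peptidyl-tRNA hydrolase built into the large subunit, by 0.66 and 0.59. In the small subunit Mrps12, at the decoding centre, rose by 0.64 and 0.39, and Mrps5 by 0.61 and 0.77, again with imeglimin and then metformin. Mrps30, a large subunit protein despite its name, rose by 0.69 and 0.56. Mrps15 was called with imeglimin at 0.58 (edgeR adjusted p = 0.0065), and with metformin its estimate was 0.38 (edgeR adjusted p = 0.0644). Mrps6, a small subunit protein of the platform, had 34, 40.5 and 37 CPM with imeglimin and 47.4, 39 and 37.5 CPM with metformin, against 23.7, 22.4 and 23.8 CPM in controls, with rises of 0.67 ± 0.11 (edgeR adjusted p = 0.00117) and 0.82 ± 0.11 (edgeR adjusted p = 0.000706).

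**Figure D2:**
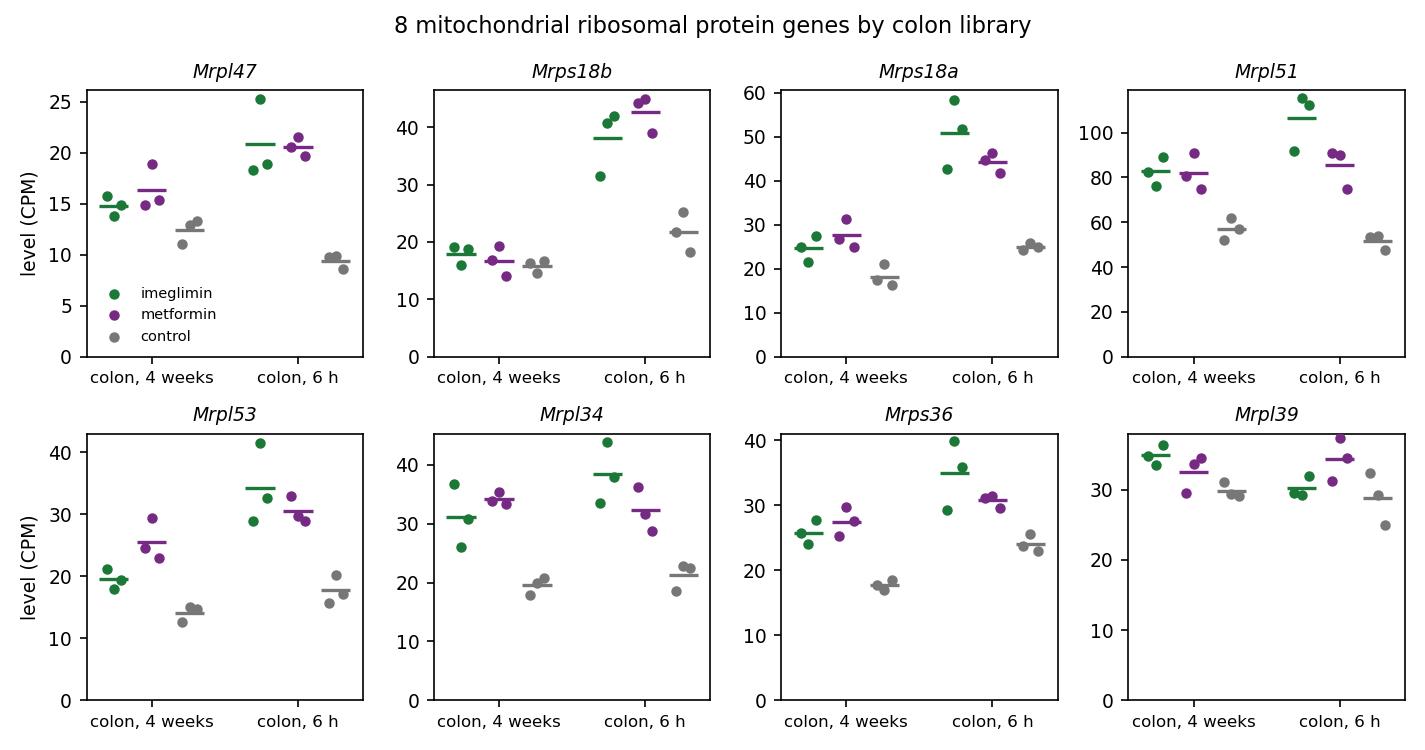
CPM of 8 members in each colon library (vertical axes, TMM scaling within a table) at 4 weeks and at 6 h, with imeglimin, metformin and control side by side. Points are libraries. Mrpl47, Mrps18a, Mrpl51, Mrpl53 and Mrpl34 lie above the controls in every drug library at 6 h, Mrps18b overlaps its controls at 4 weeks, and Mrpl39 was not called at either time.

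In colon after 4 weeks the same direction was seen with fewer calls. With imeglimin 25 of the 78 members were higher (7.97% of all 18665 genes tested were) and 0 were lower (5.07% of all genes were) by edgeR's quasi-likelihood test, by 1.25-fold to 1.6-fold. At an unadjusted p under 0.05 the test picked 57, and DESeq2 called 38. With metformin 43 were higher (11.6% of all genes were) and 0 were lower (8.04% of all genes were), by 1.22-fold to 1.82-fold, and the unadjusted p was under 0.05 for 58 while DESeq2 called 48. The median log2 fold change was 0.32 with imeglimin (range -0.2 to 0.68) and 0.4 with metformin (range -0.06 to 0.86), against -0.02 and -0.05 over all genes. The drug libraries all lay above the controls in 57 members with imeglimin (17.4% of all genes did, and 16.7% lay below) and in 61 with metformin (20.5% of all genes did, and 20.6% lay below), and in no member did they all lie below. Of the Mrpl genes 17 of 49 were called with imeglimin and 30 with metformin, and of the Mrps genes 8 and 13 of 29. These counts depend on the fit, and the share of all genes called in each refit below is not given. A fall in the members called can therefore not be told apart from a fall over all genes. Without control 3, the library with acinar RNA, 6 members were called with imeglimin and 31 with metformin. Without metformin 2 or metformin 3, the libraries low in lymphocyte markers, 30 and 41 were called with metformin. With the replicate number as a block, which the labels equate with a batch, 15 were called with imeglimin. With the mean log2 level of the smooth muscle markers as a covariate 5 were called with imeglimin (median log2 fold change 0.23) and 0 with metformin (median 0.18). With that of the B and plasma cell markers 9 were called with imeglimin (median 0.29) and 6 with metformin (median 0.34). The smooth muscle level was 8.63, 8.66 and 8.63 in controls, 8.26, 8.06 and 8.25 with metformin and 8.18, 8.69 and 8.53 with imeglimin. Every metformin library thus lay below every control, so this covariate and metformin cannot be told apart here. With library totals in place of TMM 11 were higher and 1 lower with imeglimin, and 26 were higher with metformin. Leaving out imeglimin 1 or 3, or control 1 or 2, left 10, 10, 10 and 14 calls with imeglimin.

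Mrpl34, a large subunit protein, rose most with imeglimin at 4 weeks. It had 36.7, 26.1 and 30.8 CPM with imeglimin and 33.9, 35.3 and 33.3 CPM with metformin, against 17.8, 20 and 20.7 CPM in controls. The groups did not overlap, and the log2 rise was 0.68 ± 0.12 with imeglimin (edgeR adjusted p = 0.00764) and 0.81 ± 0.12 with metformin (edgeR adjusted p = 0.00162). Mrps22, a mitochondrion-specific small subunit protein, had 19, 15.4 and 16.7 CPM with imeglimin and 13, 16.7 and 12.8 CPM with metformin, against 11, 10.7 and 11 CPM in controls. Its controls were nearly equal, and it rose by 0.64 ± 0.13 with imeglimin (edgeR adjusted p = 0.0123), while with metformin the estimate was 0.38 ± 0.13 (edgeR adjusted p = 0.0649). Mrpl42 had 65.1, 56 and 63.4 CPM with imeglimin and 54.1, 66.1 and 59.5 CPM with metformin, against 41.6, 43.9 and 36.7 CPM in controls. It rose by 0.59 ± 0.1 with imeglimin (edgeR adjusted p = 0.00673) and 0.56 ± 0.1 with metformin (edgeR adjusted p = 0.00459).

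With metformin at 4 weeks Mrpl53 rose most. It had 21.1, 18 and 19.4 CPM with imeglimin and 24.6, 29.3 and 22.9 CPM with metformin, against 12.6, 15.1 and 14.7 CPM in controls. All drug libraries lay above all controls, and the log2 rise was 0.47 ± 0.12 with imeglimin (edgeR adjusted p = 0.0317) and 0.86 ± 0.12 with metformin (edgeR adjusted p = 0.00132). Mrps24, with a bacterial counterpart in the small subunit, had 28.7, 41 and 30.1 CPM with metformin, against 20.2, 19.1 and 16.1 CPM in controls, a rise of 0.85 ± 0.15 (edgeR adjusted p = 0.00482). Mrps16 had 28.3, 38.4 and 32.5 CPM with metformin, against 19.2, 17.3 and 19.4 CPM in controls, a rise of 0.83 ± 0.12 (edgeR adjusted p = 0.00158). In both genes metformin 2 was the highest library. Mrps36, now regarded as a component of the 2-oxoglutarate dehydrogenase complex and not of the ribosome, had 25.7, 24 and 27.6 CPM with imeglimin and 25.2, 29.7 and 27.5 CPM with metformin, against 17.7, 16.9 and 18.4 CPM in controls. It rose by 0.54 ± 0.09 with imeglimin (edgeR adjusted p = 0.00665) and 0.64 ± 0.09 with metformin (edgeR adjusted p = 0.00147).

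Of the other members with named tasks, Mrpl12 rose at 4 weeks by 0.37 ± 0.1 with imeglimin (edgeR adjusted p = 0.0403) and 0.51 ± 0.1 with metformin (edgeR adjusted p = 0.00698). The imeglimin call of Mrpl12 was lost with the replicate block (edgeR adjusted p = 0.0658) and without control 3 (edgeR adjusted p = 0.112). Mrpl45 rose by 0.32 with imeglimin and 0.42 with metformin, and Mrps15 by 0.41 and 0.45. Mrpl3, Mrpl58, Mrps18a and Mrps30 were called with metformin alone, at 0.43, 0.45, 0.6 and 0.41, and their imeglimin estimates were 0.38, 0.25, 0.44 and 0.29. With the block Mrpl3 was no longer called with metformin (edgeR adjusted p = 0.0626), and without control 3 Mrps18a was not (edgeR adjusted p = 0.0504). Mrpl11, Mrps5, Mrps12, Mrps18b and Mrps18c were called with neither drug, with log2 estimates between 0.08 and 0.43.

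**Figure D3:**
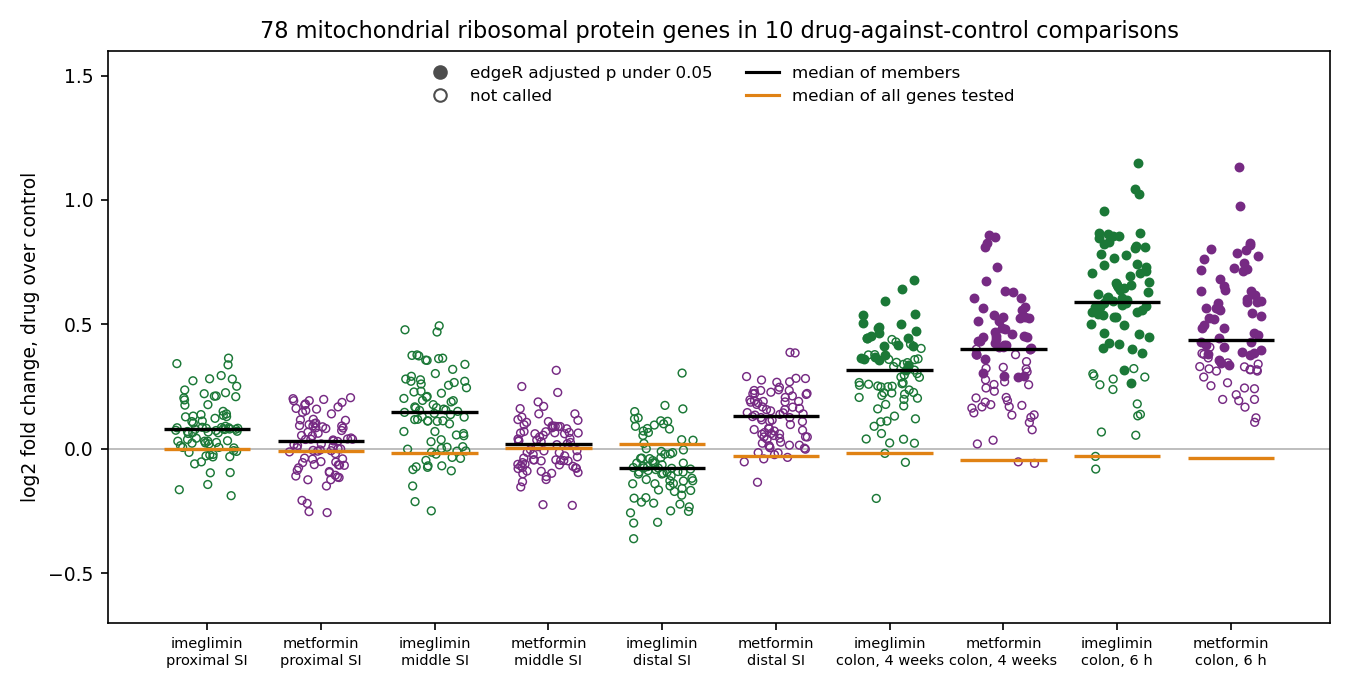
Log2 fold change of each of the 78 members (vertical axis) in the 10 comparisons of a drug with control (horizontal axis). Filled points passed edgeR's adjusted p of 0.05, black bars are the members' median and orange bars the median of all genes tested. Filled points occur in the 4 colon comparisons, with medians of 0.32 and 0.4 at 4 weeks and 0.59 and 0.44 at 6 h for imeglimin and metformin, and in none of the 6 small intestinal ones.

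Across the 4 colon comparisons 17 members were called higher in all 4, 20 in 3, 22 in 2, 11 in 1 and 8 in none. The share of all genes called equally often was not counted, so these counts do not show whether the members stand out. At each time the 2 drugs share their control libraries, so their calls are not independent. The 17 were Mrpl4, Mrpl12, Mrpl13, Mrpl16, Mrpl18, Mrpl21, Mrpl34, Mrpl35, Mrpl41, Mrpl42, Mrpl45, Mrpl46, Mrpl51, Mrpl53 and Mrpl55 with Mrps16 and Mrps23. The 8 were Mrpl2, Mrpl24, Mrpl33, Mrpl39, Mrpl48, Mrpl49, Mrpl50 and Mrps31. Mrpl39, for example, had 34.7, 33.6 and 36.3 CPM with imeglimin and 29.5, 33.6 and 34.5 CPM with metformin, against 31.1, 29.3 and 29.1 CPM in controls at 4 weeks. Its log2 estimates were 0.23 ± 0.08 (edgeR adjusted p = 0.0876) and 0.13 ± 0.08 (edgeR adjusted p = 0.278), and the metformin libraries overlapped the controls. The experiments at the 2 times have separate controls, so their calls can be set side by side. With imeglimin 23 members were called at both times, 92% of those called at 4 weeks and 35.9% of those called at 6 h. With metformin 31 were called at both times, 72.1% of those called at 4 weeks and 60.8% of those called at 6 h. For these overlaps the share of all genes was not counted either. Of all 78 members 82.1% were called with imeglimin and 65.4% with metformin at 6 h, and 32.1% and 55.1% at 4 weeks.

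Whether the effect differed between the times was tested directly, as the effect at 4 weeks minus the effect at 6 h in 1 fit of all 18 colon libraries. The times also differ in dose and route, so time cannot be told apart from these. Colon epithelial markers differed between the controls of the 2 times as well, in CPM scaled within each time's own libraries. Car1 had 10100, 11100 and 8910 CPM in acute controls and 400, 747 and 379 CPM in chronic controls. Slc26a3 went the other way, with 288, 263 and 372 CPM against 1410, 1170 and 1530 CPM. The part of this tissue difference in the results was not tested, and time cannot be told apart from it either. For imeglimin 12 members had a smaller effect at 4 weeks (7.56% of all 19369 genes tested were called lower) and 0 a larger one (8.72% of all genes were called higher), with a median difference of -0.25 on the log2 scale. For metformin 3 had a smaller effect at 4 weeks (2.32% of all genes were called lower) and 0 a larger one (3.90% of all genes were called higher), with a median difference of -0.06. The metformin count is near the share of all genes. The unadjusted p was under 0.05 for 25 and 14 members with imeglimin and metformin, and DESeq2 called 7 for metformin. Mrps17, a small subunit protein, had 26.7, 23.9 and 25.1 CPM with imeglimin, against 24, 26.9 and 25.8 CPM in controls at 4 weeks. At 6 h Mrps17 had 31.7, 36.4 and 35.2 CPM with imeglimin, against 23, 23.9 and 23.3 CPM in controls. The groups overlapped at 4 weeks and were far apart at 6 h, and the effects differed by -0.55 ± 0.11 (edgeR adjusted p = 0.00326). Mrpl47 differed by -0.87 ± 0.18 with imeglimin (edgeR adjusted p = 0.00455) and -0.7 ± 0.18 with metformin (edgeR adjusted p = 0.032), and Mrps18b by -0.61 ± 0.2 (edgeR adjusted p = 0.0443) and -0.87 ± 0.2 (edgeR adjusted p = 0.0154). Mrps18b at 4 weeks had 19.1, 15.9 and 18.8 CPM with imeglimin and 16.8, 19.3 and 14.1 CPM with metformin, against 16.4, 14.6 and 16.6 CPM in controls, which overlap. The third gene for metformin was Mrpl19, at -0.54 ± 0.13 (edgeR adjusted p = 0.0183). The others for imeglimin were Mrpl15, Mrpl20, Mrpl38, Mrpl51, Mrpl52, Mrpl54, Mrpl57, Mrps7 and Mrps18a, with differences of -0.48 to -0.69. These calls change with the replicates included, since leaving out replicate 1, 2 or 3 of all groups left 8, 0 and 0 for imeglimin and 0, 2 and 0 for metformin.

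**Figure D4:**
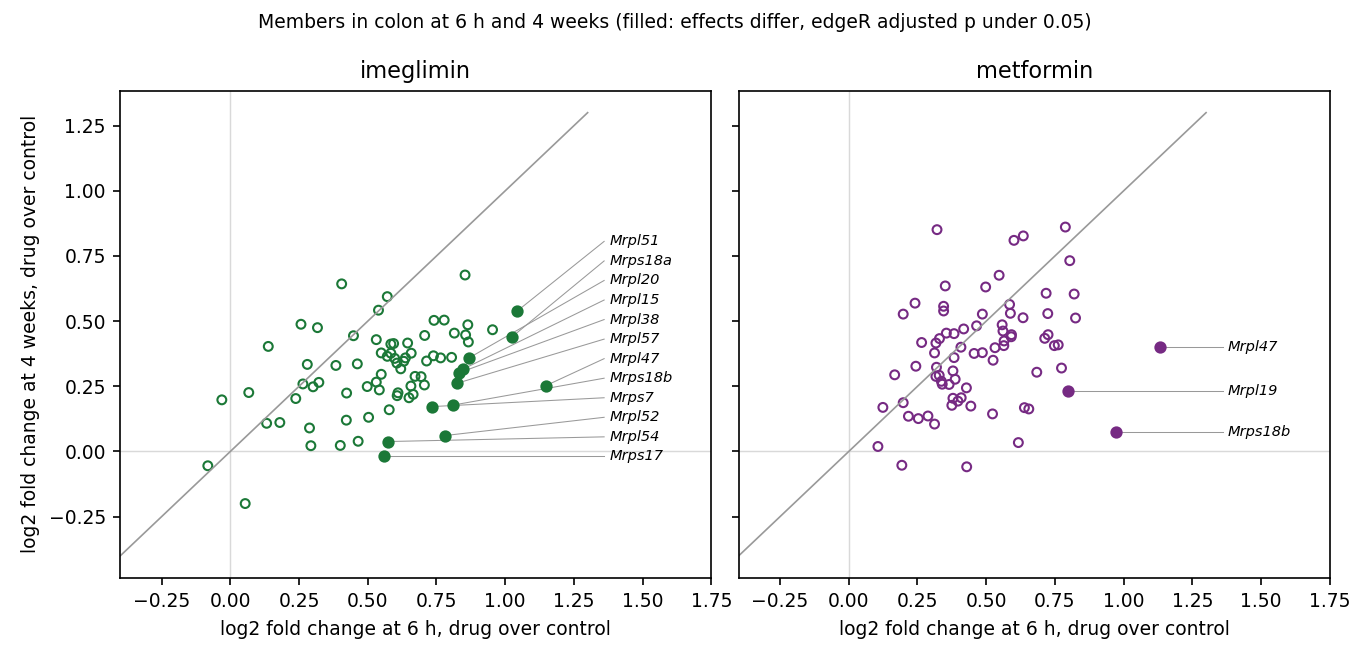
Log2 fold change of each member against control at 6 h (horizontal axis) and at 4 weeks (vertical axis) in colon, for imeglimin and metformin. Filled points are members whose effects differ between the times at edgeR's adjusted p of 0.05, 12 for imeglimin and 3 for metformin. All of these lie below the diagonal, with the smaller effect at 4 weeks.

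In the small intestine after 4 weeks no member was called with either drug by edgeR's quasi-likelihood test. In proximal small intestine the counts were 0 with imeglimin (1.16% of all genes tested were called) and 0 with metformin (4.11% of all genes were). The unadjusted p was under 0.05 for 15 and 6 members, and DESeq2 called 3 and 0. In middle small intestine they were 0 with imeglimin (0.0279% of all genes) and 0 with metformin (0.340% of all genes), with 19 and 1 at an unadjusted p under 0.05 and 6 and 0 by DESeq2. In distal small intestine they were 0 with imeglimin (0.0219% of all genes) and 0 with metformin (0.625% of all genes), with 1 and 6 at an unadjusted p under 0.05 and 0 and 0 by DESeq2. The members' median log2 fold change with imeglimin was 0.08, 0.15 and -0.08 in proximal, middle and distal segments, and with metformin 0.03, 0.02 and 0.13. The farthest 95% confidence bound of any member lay at 0.66, 0.83 and 0.82 with imeglimin and 0.55, 0.58 and 0.74 with metformin, in absolute log2 units. With imeglimin 18 members had all drug libraries above the controls in the proximal segment (9.93% of all genes did), 29 in the middle (12.8% of all genes) and 2 in the distal (7.72% of all genes), and 2, 1 and 6 had all below (11.0%, 12.5% and 7.93% of all genes). With metformin 7, 5 and 9 lay above (11.8%, 8.74% and 11.6% of all genes) and 2, 3 and 0 below (13.5%, 6.90% and 10.5% of all genes).

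The smallest p in proximal small intestine was that of Mrpl15, a large subunit protein, with 67.7, 72 and 67.5 CPM with imeglimin against 54.5, 48.6 and 60.9 CPM in controls. These groups did not overlap, and the log2 estimate was 0.34 ± 0.08 (edgeR adjusted p = 0.07). In middle small intestine it was that of Mrps21, with 40.6, 40.9 and 39.2 CPM with imeglimin against 25.7, 27.9 and 33.2 CPM in controls, an estimate of 0.48 ± 0.1 (edgeR adjusted p = 0.094). Mrps35 and Mrpl2 followed in the proximal and Mrps15 and Mrpl15 in the middle segment, with estimates of 0.28, 0.28, 0.37 and 0.36. In distal small intestine Mrpl16 had 14.8, 15.3 and 15.1 CPM with imeglimin against 20, 16.3 and 19.3 CPM in controls, an estimate of -0.3 ± 0.12 (edgeR adjusted p = 0.465). With metformin Mrps35 had the smallest p in the proximal segment, at 0.2 (edgeR adjusted p = 0.129). Mrpl53 had it in the middle and distal segments, at 0.32 (edgeR adjusted p = 0.356) and 0.39 (edgeR adjusted p = 0.222). Mrpl12 had estimates of 0.21, 0.06 and -0.17 with imeglimin and 0.18, 0.03 and 0.22 with metformin in proximal, middle and distal segments, none of them called.

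Whether a drug's effect differed among the 4 segments at 4 weeks was tested in 1 fit of all chronic libraries, as any difference between colon and the 3 parts of the small intestine. For imeglimin 3 members passed, a share near the 2.96% of all 20053 genes tested that did. For metformin 9 passed (4.03% of all genes did). The members for imeglimin were Mrpl42, Mrpl41 and Mrpl16, with edgeR adjusted p = 0.0127, 0.0293 and 0.0343. In colon their effects exceeded those in proximal small intestine by 0.48, 0.51 and 0.54 on the log2 scale, while the middle segment differed from the proximal by -0.12, 0.16 and 0.07 and the distal by -0.2, -0.18 and -0.22. The members for metformin were Mrps23, Mrpl53, Mrpl4, Mrps16, Mrps18a, Mrpl42, Mrpl55, Mrps36 and Mrpl13, with edgeR adjusted p of 0.00185 to 0.0379. Their effects in colon exceeded those in proximal small intestine by 0.36 to 0.89. For Mrps23, a small subunit protein, the middle, distal and colon effects exceeded the proximal one by 0.11, 0.21 and 0.6. The unadjusted p was under 0.05 for 37 members with imeglimin and 34 with metformin, and DESeq2 called 13 and 16. Leaving out any 1 replicate number from all groups left 0 calls for imeglimin and 2, 0 and 0 for metformin.

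Imeglimin and metformin were then compared directly, at matched time, in each of the 5 tissue sets. The oral dose was matched in acute colon. In the chronic sets the concentration in drinking water was matched, which does not fix the dose taken in. No member differed by edgeR's quasi-likelihood test in acute colon (0.645% of all genes did), proximal (1.09% of all genes), middle (0% of all genes) or distal small intestine (0.0494% of all genes), or chronic colon (0.611% of all genes). The unadjusted p was under 0.05 for 13, 9, 14, 8 and 13 members in that order, and DESeq2 called 1, 1, 0, 1 and 5, again without shares of all genes. The median log2 ratio of imeglimin to metformin was 0.11, 0.06, 0.12, -0.19 and -0.08, and the farthest 95% confidence bound of a member lay at 0.71, 0.71, 0.86, 1.04 and 0.84 in absolute log2 units. The members are therefore not shown to respond alike to the 2 drugs. In acute colon Mrpl49 had 28.4, 27.9 and 26.4 CPM with imeglimin, against 36.9, 37 and 33 CPM with metformin. Its groups did not overlap, and the log2 ratio was -0.37 ± 0.1 (95% interval -0.59 to -0.15, edgeR adjusted p = 0.127). Mrpl52 followed there, at 0.42 ± 0.13 (95% interval 0.12 to 0.71, edgeR adjusted p = 0.176). In chronic colon Mrpl30 had 50, 41.7 and 44 CPM with imeglimin, against 53.8, 57.4 and 58.5 CPM with metformin, a ratio of -0.32 ± 0.09 (95% interval -0.53 to -0.12, edgeR adjusted p = 0.116). In distal small intestine the ratio was below 0 for all but 5 members, with a median of 0.017 over all genes. All members come from the same libraries, so their signs are not independent. Summed epithelial markers in that segment were 11900 to 16600 CPM with imeglimin and 14100 to 19300 CPM with metformin, and their part was not tested. Mrpl20 had 27.9, 28.3 and 31.1 CPM with imeglimin there, against 35, 40.3 and 41.9 CPM with metformin, a ratio of -0.42 ± 0.11 (95% interval -0.67 to -0.18, edgeR adjusted p = 0.357). In middle small intestine Mrps24 had 17.7, 18.6 and 18 CPM with imeglimin, against 13, 13.7 and 11.1 CPM with metformin, a ratio of 0.52 ± 0.15 (edgeR adjusted p = 0.253).

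Control libraries of neighbouring segments were compared as well. In middle against proximal controls 3 members were lower (4.37% of all genes were called lower) and 0 higher (2.33% of all genes were), namely Mrps15 at -0.51 ± 0.11 (edgeR adjusted p = 0.00391), Mrpl4 at -0.36 and Mrps36 at -0.33. In distal against middle controls 2 were lower (6.65% of all genes were) and 0 higher (3.32% of all genes were), namely Mrpl23 at -0.48 (edgeR adjusted p = 0.00105) and Mrpl15 at -0.44 (edgeR adjusted p = 0.00671). In neither of these 2 comparisons did the share of members called exceed that of all genes, so the members do not stand out there. In colon against distal small intestine 3 were higher (21.4% of all genes were) and 33 lower (23.6% of all genes were). With library totals in place of TMM the split in colon against distal was 14 higher and 7 lower, and that in distal against middle 10 higher and 0 lower. Library totals moved the median of all genes by 0.207 and 0.209 in these 2 comparisons, and the shares of all genes called with them are not given. How many members are called in each direction along the gut therefore depends on the scaling. Mrps6 had 33.2, 40.5 and 37 CPM in colon, scaled over all chronic libraries, against 12.1, 11 and 10.6 CPM in distal small intestine. It stood well apart, at 1.72 ± 0.12 (edgeR adjusted p = 1.04e-12), and its exons share bases with Slc5a3 and Gm49711 on the same strand. Mrps31, a small subunit protein, had 16, 18.2 and 19.1 CPM in colon, against 34.4, 35.4 and 27.3 CPM in distal small intestine, a difference of -0.87 ± 0.12 (edgeR adjusted p = 5.15e-07).

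Other genes of mitochondrial translation were called in both directions in colon. Of 5 ribosomal subunits with other symbols, 0 were called with imeglimin and 1 with metformin at 4 weeks, and 3 and 4 at 6 h. Aurkaip1, in the small subunit, was higher by 0.5 with metformin at 4 weeks and by 0.6 with imeglimin and 0.39 with metformin at 6 h. Gadd45gip1, in the large subunit, was higher by 0.86 and 0.65 at 6 h, and Dap3, a GTP-binding small subunit protein, was called in none of the 4 comparisons. Of 13 translation factors, 4 were higher and 2 lower with imeglimin and 4 higher and 1 lower with metformin at 4 weeks, and 4 were higher with each drug at 6 h. Gfm1, the elongation factor that moves the ribosome along, was higher by 0.79 with imeglimin and 0.77 with metformin at 4 weeks and by 0.41 and 0.64 at 6 h. Mtfmt, which formylates the initiator methionine, fell by 0.37 and 0.34 at 4 weeks and was not called at 6 h. Of 25 assembly and RNA modification factors, 2 were higher with imeglimin and 6 with metformin at 4 weeks, and 9 were higher and 1 lower with each drug at 6 h. The RNA methyltransferases Mrm1 and Mrm3 were higher at 6 h by 1.56 and 1.24 with imeglimin and 0.78 and 1.24 with metformin, and Ybey, an RNA endonuclease homolog, was lower. Of 17 mitochondrial aminoacyl-tRNA synthetases, 1 was higher with imeglimin and 2 with metformin at 4 weeks, and at 6 h 5 were higher and 4 lower with imeglimin and 6 higher with metformin. Yars2 was higher at 6 h by 0.92 and 0.9.

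Of 9 nuclear regulators of mitochondrial genes, 1 was higher and 2 lower with imeglimin and 2 higher and 1 lower with metformin at 4 weeks, while 6 and 5 were higher at 6 h. Esrra, an orphan nuclear receptor, was higher in all 4 comparisons, by 0.32 with imeglimin and 0.65 with metformin at 4 weeks and by 0.9 and 0.64 at 6 h. Nrf1 fell by 0.33 with imeglimin at 4 weeks, where the metformin estimate was -0.06, and was higher by 0.72 and 0.5 at 6 h. Yy1 fell by 0.43 and 0.3 at 4 weeks and was not called at 6 h. Of 6 genes of mitochondrial DNA transcription and RNA stability, 2 were higher with imeglimin and 2 higher and 1 lower with metformin at 4 weeks, and at 6 h 3 were higher and 1 lower with imeglimin and 2 higher with metformin. Lrpprc, which stabilises mitochondrial messenger RNA, was higher in all 4, by 0.73, 0.8, 0.52 and 0.7 in the same order. Of the 13 messenger RNAs that mitochondrial ribosomes translate, 11 were higher with imeglimin and 3 with metformin at 4 weeks, and 6 and 2 were lower at 6 h. The 6 called with imeglimin at 6 h thus had the opposite sign to the members' calls, while the rest of the 13 were not called lower. With metformin most of the 13 were not called lower, and 2 calls are too few to set apart from the share of all genes. Of 36 nuclear-encoded complex I subunits, 31 were higher with imeglimin and 36 with metformin at 4 weeks, and 32 and 13 at 6 h. Of 79 cytosolic ribosomal proteins tested, 0 and 7 were higher at 4 weeks and 44 and 1 at 6 h. The counts for these lists can be read against the shares of all genes given for the same comparisons. General epithelial markers, 10 in number, were called higher in 1 and 5 cases at 4 weeks and in 2 and 3 at 6 h with imeglimin and metformin. Of 15 proliferation genes 8 and 5 were higher at 4 weeks, with summed levels of 373 to 529 and 277 to 353 CPM against 185 to 292 CPM in controls. At 6 h 7 and 7 were higher and 1 was lower with imeglimin, with sums of 556 to 677 and 616 to 716 CPM against 458 to 595 CPM in controls. The part of epithelial, proliferating, fibroblast and T and NK cell markers in the members' changes was not tested. With the smooth muscle covariate at 6 h 65 members were called with imeglimin and 44 with metformin. The share of all genes called in that refit is not given. A change from the counts without the covariate can therefore not be told apart from a change over all genes.

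**Figure D5:**
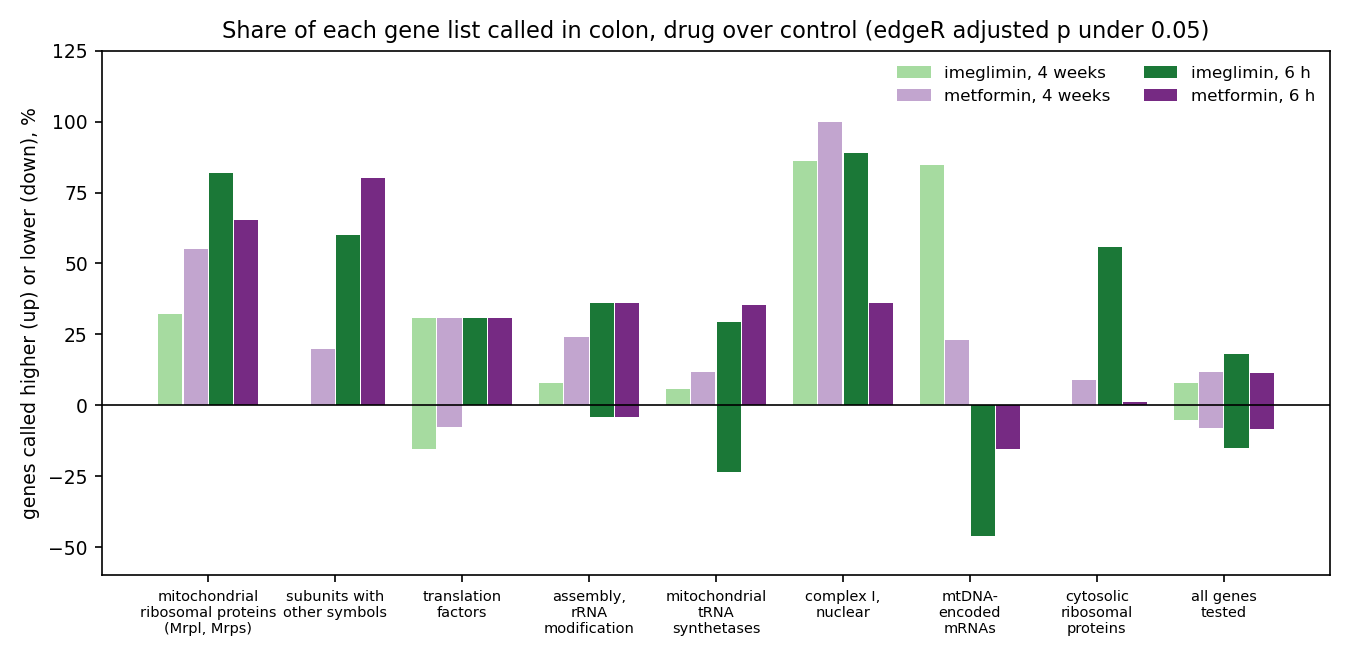
Percent of each gene list called higher (above 0) or lower (below 0) in the 4 comparisons of a drug with control in colon, by edgeR's adjusted p of 0.05. The members reach 32.1% and 55.1% at 4 weeks and 82.1% and 65.4% at 6 h for imeglimin and metformin, all higher.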

How the data were processed

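The 45 libraries were made with a stranded mRNA kit, per the labels' protocols. The deposited tables, 1 for each of 5 tissue sets, hold raw gene counts that the authors made and did not normalize. Tools listed in the submitters' processing notes are HISAT2, StringTie, Trimmomatic and FastQC, with the builds mm10 and GRCm39 and no role for either. For the counting step itself, the counter and its settings are not stated. The single-cell sample is not used here.

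Counts were tested with edgeR 4.0.16 (R 4.3.3; quasi-likelihood F test, TMM scaling, filterByExpr) in 1 fit per table of 9 libraries, or 1 joint fit where times or segments were compared. P-values were adjusted over all genes tested by Benjamini-Hochberg, with 0.05 as the threshold, and fold changes carry their SE. On simulated data for metformin against control in chronic colon (18665 genes), 46.3% of genes changed by a log2 of 0.5, 92.5% by 1.0 and 97.0% by 2.0 were recovered, with 6.0% false among those called. At a log2 of 0.5 recovery was 17.9% for metformin against control in acute colon (18294 genes), 4.5% for the metformin difference between the times (19369 genes) and 13.4% for that among segments (20053 genes). Each simulation changed 67, 67 and 66 genes by 0.5, 1.0 and 2.0, a far smaller share than was called against control in colon. Adjustment was therefore stricter in the simulations, and recovery in the colon data may be higher than these values.

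The members and gene lists were chosen with earlier results of these data known. Named genes are the 4 largest rises among called members whose groups do not overlap (or, where fewer than 3 were called, the 3 smallest p; for imeglimin against metformin the 2 smallest), the 3 smallest p in joint fits, and members with named tasks. Mrpl39, Mrpl34, Mrpl42, Mrpl51, Mrps6, Mrps17 and Mrps23 and the examples from other lists were partly described outside the comparison that named them, after their values were seen. The labels' batch tag equals the replicate number, and what it stands for is not stated. Whether same-numbered libraries are paired is therefore not known. Deviations of same-numbered libraries had a mean correlation of -0.00563 in acute colon, 0.00548, -0.1 and -0.132 in proximal, middle and distal small intestine, and 0.0687 in chronic colon. Alternatives were RLE scaling, library totals, DESeq2 1.42.0, no low-count filter, the block, only the 2 groups compared, marker scores as covariates, and leaving out libraries.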

Additional observations from a re-analysis of the deposited data

Results flagged for a closer look

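These results stand here because the effect of a drug differed, by a test of the difference itself, between 2 times or among 4 segments. The counts are read against the share of all genes tested that passed the same test.

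Between the times in colon, 12 of 78 members had an imeglimin effect at 4 weeks below that at 6 h (7.56% of all genes did). The log2 differences, 4 weeks minus 6 h, were -0.55 for Mrps17, -0.87 for Mrpl47, -0.69 for Mrpl52, -0.54 for Mrps7, -0.504 for Mrpl15 and -0.51 for Mrpl54. They were -0.48 for Mrpl51, -0.56 for Mrps18a, -0.48 for Mrpl20, -0.54 for Mrpl57, -0.61 for Mrps18b and -0.505 for Mrpl38. For metformin 3 of 78 members differed, a share near the 2.32% of all genes that were lower. The differences were -0.87 for Mrps18b, -0.54 for Mrpl19 and -0.699 for Mrpl47. Leaving out 1 replicate number from all groups left 0 to 8 members for imeglimin and 0 to 2 for metformin.

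Among the 4 segments at 4 weeks the imeglimin effect differed for 3 of 78 members, a share near the 2.96% of all genes that passed, with edgeR adjusted p = 0.0127 for Mrpl42, 0.0293 for Mrpl41 and 0.0343 for Mrpl16. The metformin effect differed for 9 of 78 members (4.03% of all genes passed), with edgeR adjusted p = 0.00185 for Mrps23, 0.00832 for Mrpl53, 0.00871 for Mrpl4, 0.0108 for Mrps16 and 0.0134 for Mrps18a. For the others it was 0.016 for Mrpl42, 0.0195 for Mrpl55, 0.0325 for Mrps36 and 0.0379 for Mrpl13. Leaving out 1 replicate number left 0 members for imeglimin and 0 to 2 for metformin.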

How the results depend on the processing

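No count of members turned round under any alternative run, except the comparisons of control segments with library totals and 1 imeglimin call, given in the report. The cause of the changes that follow was not tested, and the shares of all genes called in these runs are not given.

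With DESeq2 the called members were 38 for imeglimin in chronic colon (25 with edgeR), 3 and 6 for imeglimin in proximal and middle small intestine (0 and 0), 7 for the difference of the metformin effect between the times (3), and 13 and 16 for the differences of the imeglimin and metformin effects among segments (3 and 9). They were 5 for middle against proximal controls (3), and for imeglimin against metformin 1 in acute colon, 5 in chronic colon, 1 in proximal and 1 in distal small intestine (0 in each). With library totals they were 12 for imeglimin and 26 for metformin in chronic colon, 7 for the metformin difference between the times, 1 and 5 for the imeglimin and metformin differences among segments, 1 for middle against proximal, 10 for distal against middle and 21 for colon against distal controls. Library totals moved the median of all genes by -0.1 for imeglimin and -0.14 for metformin in chronic colon, and by -0.11 for imeglimin in acute colon. With the smooth muscle score as a covariate 5 were called for imeglimin and 0 for metformin in chronic colon, and with a B and plasma cell score 9 and 6. That smooth muscle score was lower in every metformin library than in every control, so score and metformin cannot be told apart there. Without the low-count filter 6 were called for the imeglimin difference between the times and 22 for colon against distal controls. With the replicate block 15 were called for imeglimin in chronic colon. The block ended the calls of Mrpl3 (metformin) and Mrpl12 (imeglimin) in chronic colon and of Mrps18b for imeglimin between the times, and changed no other call of a named member.

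Leaving out 1 library at a time gave 57 to 67 calls for imeglimin and 34 to 47 for metformin in acute colon, 6 to 23 and 29 to 41 in chronic colon, and 0 to 1 for imeglimin in proximal small intestine (1 without control 3). Leaving out 1 replicate number gave 0 to 8 and 0 to 2 for the imeglimin and metformin differences between the times, 0 and 0 to 2 among segments, 0 to 3 for middle against proximal, 0 to 3 for distal against middle and 15 to 26 for colon against distal controls. With 3 libraries a group, small log2 changes are often missed.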
